A study of Mus musculus with 8 samples.

Results

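The genes described are 9 members of the JAK-STAT pathway and its negative feedback, chosen by name: the feedback inhibitors Cish, Socs1, Socs2 and Socs3, the transcription factors Stat5a, Stat5b and Stat3, and the kinases Jak1 and Jak3. They were chosen with earlier results of these data known. Of these, 8 had a probe set annotated to that gene alone, among 22180 genes that did. The only probe set of Jak3 also carried the symbol of Insl3, so no value of Jak3 is given. The cells were primary regulatory T (Treg) cells, sorted as Foxp3 (GFP)+CD4+CD25+ from thymus or spleen of C57Bl/6J mice in which GFP reported the Foxp3 locus. Control mice (HET) carried 1 deleted copy of the miR-181a/b-1 microRNA cluster and test mice (KO) carried 2, so the control cells also lacked 1 copy of the cluster and no wild-type array was included. The deletion is in the germline and not restricted to Treg cells. Total RNA was hybridised to 8 Affymetrix arrays with 2 arrays for each of the 4 combinations of tissue and genotype. Each array held a pool of mice. Per the labels, pool HET1 had 3 females and 1 male, pool HET2 had 4 females and 1 male, and pools KO1 and KO2 had 2 females and 1 male each. Each pool gave 1 thymus array and 1 spleen array. The labels give no age for these pools.

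Cytokines such as IL-2, IL-7 and IL-6 bind receptors that carry JAK kinases. The activated JAKs phosphorylate STAT proteins, which form dimers, enter the nucleus and switch on target genes. Among these targets are the genes of the SOCS family, whose proteins bind the receptors or JAKs and shut the signal down, partly by recruiting a ubiquitin ligase through their SOCS box. In Treg cells IL-2 acts through JAK1, JAK3 and STAT5 and sustains Foxp3, while IL-6 acts mainly through STAT3.

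The deleted cluster encodes miR-181a and miR-181b. Their mature 5p sequences (RefSeq, build GRCm38.p6, chromosome 1, plus strand) are shown because the genotypes differ in the deleted copies of this cluster. The seed, bases 2 to 8, is in capitals. The seed is the same in both. They lie at chr1:137966468-137966490 and chr1:137966650-137966673.
mmu-miR-181a-5p: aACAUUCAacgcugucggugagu
mmu-miR-181b-5p: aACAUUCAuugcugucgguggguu

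STAT dimers bind a palindrome with the letters TTCNNNGAA, which reads the same on both strands. RefSeq promoter windows of 300 bases, from 250 before to 50 after a transcript start, were at hand for 8 of the 9 members, in 10 windows. Socs2 was not matched. Matches to TTCNNNGAA were found for Cish and Socs3, whereas 8.3% of all 32851 promoter windows held at least 1. Cish, the gene classically used as a readout of STAT5, held 2 matches, TTCCTGGAA at position 1 and TTCTTGGAA at position 12, counted from the transcript start. A share of 0.457% of all windows held 2 or more. Socs3, classically induced through STAT3, held TTCTTAGAA at position -154. A match describes the letters only. Both stretches are shown from 250 bases before to 30 bases after the start, 5′ to 3′ on the strand of the gene, with the matches in capitals, because they are the only member windows with a match. Cish lies on the plus strand at chr9:107296409-107296688 and Socs3 on the minus strand at chr11:117969337-117969616 (GRCm38.p6).
Cish promoter: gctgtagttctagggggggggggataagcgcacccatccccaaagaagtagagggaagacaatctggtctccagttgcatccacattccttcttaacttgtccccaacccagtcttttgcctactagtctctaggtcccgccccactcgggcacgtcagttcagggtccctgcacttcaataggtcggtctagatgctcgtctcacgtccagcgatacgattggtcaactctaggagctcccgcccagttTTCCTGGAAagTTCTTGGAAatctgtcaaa
Socs3 promoter: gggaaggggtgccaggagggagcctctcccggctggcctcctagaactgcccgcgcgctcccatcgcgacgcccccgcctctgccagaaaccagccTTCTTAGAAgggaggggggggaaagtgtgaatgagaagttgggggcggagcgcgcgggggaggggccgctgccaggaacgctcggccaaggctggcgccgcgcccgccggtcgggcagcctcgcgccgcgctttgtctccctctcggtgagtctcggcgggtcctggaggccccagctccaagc

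Values are log2 intensities as deposited, and a difference is given on the log2 scale with its 95% confidence interval (CI). Array medians lay between 4.58 and 4.70. The 95th percentile of 1105 olfactory receptor genes, 4.62, served as the background bound, and every array of all 8 genes lay above it. The median absolute difference of a gene between replicate arrays was 0.159 in thymus HET, 0.170 in thymus KO, 0.111 in spleen HET and 0.133 in spleen KO. All 7 measured markers of 8 for Treg and T cells lay above the bound, with a mean of 10.40 to 10.68 on thymus and 10.43 to 10.54 on spleen arrays. The sex-linked genes did not match the labelled sexes. Xist, the RNA of the inactive X chromosome, lay at 3.58 to 4.40 on HET arrays, under the bound although the labels list mostly females, and at 8.80 to 9.40 on KO arrays. Sex composition and genotype therefore cannot be told apart in any comparison of KO with HET. The precursors Mir181a-1 and Mir181b-1 were at 1.81 to 3.44 on every array, under the bound, and gave no readout of the deletion. In sorted pools, fewer cells of a type and less RNA per cell cannot be told apart. P-values measure the spread between these pooled arrays. For limma p-values and intervals, the spread of each gene was drawn towards that of all genes.

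The first question was whether thymic and splenic Treg cells differ in the feedback inhibitors and the STATs. Socs3 and Socs2 were lower in thymic cells and Stat5a was higher, by 2.78-fold, 1.97-fold and 1.70-fold averaged over genotypes (the call of Socs2 rested on 1 of its 2 probe sets), while Cish, Socs1, Stat5b, Stat3 and Jak1 did not pass the test. By limma with Benjamini-Hochberg adjustment over all genes at 0.05, 3 of the 8 members were called in the averaged comparison, against 5.43% of all genes. In the 2 directions, 1 member was higher in thymus, where 2.26% of all genes were, and 2 were lower, where 3.17% were. Within HET cells 2 members, Socs3 and Stat5a, were called against 1.2% of all genes, and within KO cells 3 members, Socs2, Socs3 and Stat5a, against 1.72%. All 4 thymus arrays lay on 1 side of all 4 spleen arrays for 6 of the 8 members, which was the case for 14.5% of all genes; these were Cish, Jak1, Socs1, Socs2, Socs3 and Stat5a. The median difference over all genes was 0.018.

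**Figure D1:**
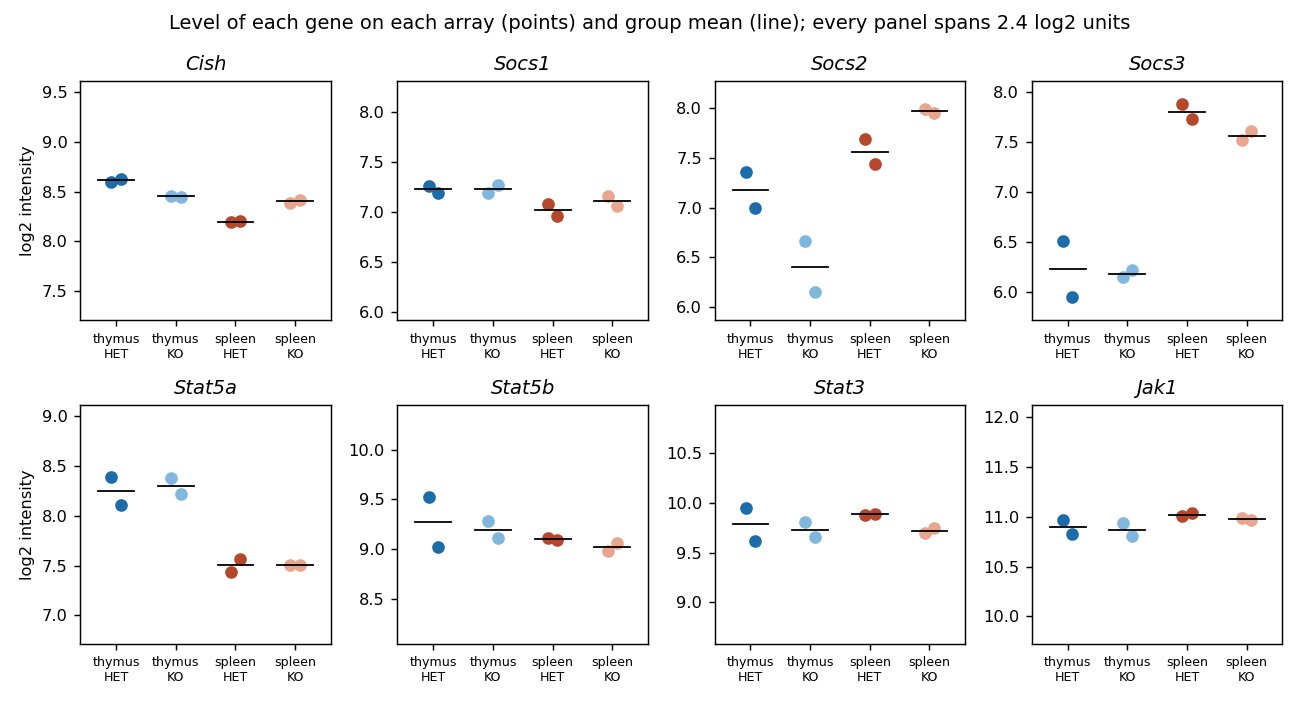
Log2 intensity (y axis) of the 8 measured genes on each of the 8 arrays, by group (x axis). Points are arrays, lines are group means of 2 arrays, and every panel spans the same number of log2 units. Socs3 lies between 5.95 and 6.51 on thymus and between 7.52 and 7.88 on spleen arrays.

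Socs3, which encodes an inhibitor of signalling through the gp130 receptor chain of IL-6, was at 6.51 and 5.95 in thymus HET and at 6.15 and 6.22 in thymus KO. In spleen it was at 7.88 and 7.73 in HET and at 7.52 and 7.61 in KO. All thymus arrays were lower than all spleen arrays, and the 2 thymus groups overlapped. The difference, thymus minus spleen, was -1.57 in HET (CI -1.94 to -1.20; limma adjusted p = 0.00128) and -1.38 in KO (CI -1.75 to -1.01; limma adjusted p = 0.00204). Averaged over genotypes it was -1.47 (CI -1.74 to -1.21; limma adjusted p = 5.32e-05). Within the mouse pools the difference was -1.36 in HET1, -1.78 in HET2, -1.37 in KO1 and -1.40 in KO2, so each pool showed it.

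Socs2, which encodes an inhibitor known for dampening growth hormone signalling and induced by STAT5, had 4 separate groups. Its level was 7.36 and 6.99 in thymus HET and 6.66 and 6.15 in thymus KO. In spleen it was 7.69 and 7.44 in HET and 7.99 and 7.95 in KO. The order from high to low was spleen KO, spleen HET, thymus HET and thymus KO, and no neighbours in this order overlapped. In KO the thymus was lower by 2.97-fold (log2 difference -1.57, CI -1.97 to -1.17; limma adjusted p = 0.00169). In HET the difference was -0.38 (CI -0.79 to 0.02; limma adjusted p = 0.45) and did not pass. Averaged, it was -0.98 (CI -1.26 to -0.69; limma adjusted p = 0.0011). The second probe set of Socs2 gave -0.26 averaged (adjusted p = 0.153) and -0.40 in KO (adjusted p = 0.197), which ends both calls. The within-pool differences were -0.32 in HET1, -0.45 in HET2, -1.34 in KO1 and -1.80 in KO2, all negative and larger in both KO pools.

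Cish, whose product CIS blocks STAT5 docking at the IL-2 receptor, had narrow groups that did not overlap with each other. It was at 8.60 and 8.63 in thymus HET, at 8.46 and 8.45 in thymus KO, at 8.39 and 8.42 in spleen KO and at 8.19 and 8.20 in spleen HET. Thymus arrays were the highest in both genotypes. The SD within a group was 0.01 to 0.02, while the limma standard error of the tissue difference was 0.12 in HET and in KO. The difference was 0.42 in HET (CI 0.17 to 0.68; limma adjusted p = 0.137), 0.05 in KO (CI -0.21 to 0.31) and 0.24 averaged (CI 0.06 to 0.42; limma adjusted p = 0.126), none of which passed. By pool it was 0.42 in HET1, 0.43 in HET2, 0.07 in KO1 and 0.03 in KO2.

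Socs1, whose product inhibits JAK1 and JAK2 directly, stayed within a narrow range. It was at 7.26 and 7.19 in thymus HET, 7.19 and 7.27 in thymus KO, 7.08 and 6.96 in spleen HET and 7.16 and 7.06 in spleen KO. The thymus arrays were all above the spleen arrays, and within each tissue the genotypes overlapped. The averaged difference of 0.16 (CI -0.03 to 0.35; limma adjusted p = 0.322) did not pass.

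Stat5a encodes 1 of the 2 STAT5 proteins that relay IL-2 and IL-7 signals. It was at 8.39 and 8.11 in thymus HET, 8.38 and 8.22 in thymus KO, 7.44 and 7.57 in spleen HET and 7.51 and 7.51 in spleen KO. All thymus arrays were above all spleen arrays, and the genotypes overlapped in both tissues. The difference was 0.75 in HET (CI 0.45 to 1.05; limma adjusted p = 0.0246), 0.79 in KO (CI 0.49 to 1.09; limma adjusted p = 0.0144) and 0.77 averaged (CI 0.56 to 0.98; limma adjusted p = 0.000803). Every pool was higher in thymus, by 0.95 in HET1, 0.55 in HET2, 0.87 in KO1 and 0.70 in KO2. The averaged call held without any single array (adjusted p up to 0.00663). The call within HET was lost without thymus HET replicate 1 (adjusted p = 0.101), spleen HET replicate 1 (0.241) or spleen HET replicate 2 (0.138), and the call within KO without thymus KO replicate 1 (0.0622), spleen KO replicate 1 (0.11) or spleen KO replicate 2 (0.112).

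Stat5b, the other STAT5 gene, was at 9.52 and 9.02 in thymus HET and at 9.28 and 9.11 in thymus KO. In spleen it was at 9.11 and 9.09 in HET and at 8.98 and 9.06 in KO. Tissues overlapped through thymus HET replicate 2, and the averaged difference was 0.17 (CI -0.08 to 0.42; limma adjusted p = 0.427). Stat3, the mediator of IL-6, IL-21 and IL-10 signals, was at 9.95 and 9.62 in thymus HET and at 9.81 and 9.66 in thymus KO. In spleen it was at 9.88 and 9.89 in HET and at 9.70 and 9.75 in KO. Groups of Stat3 that were neighbours in the order of means all overlapped. Spleen HET and spleen KO, the first and last in that order, did not overlap with each other. The averaged tissue difference of Stat3 was -0.04 (CI -0.26 to 0.17; limma adjusted p = 0.84), a value whose sign turned to 0.03 under quantile normalization. Jak1, the kinase shared by the IL-2 and IL-6 receptor families, was at 10.97 and 10.83 in thymus HET, 10.94 and 10.81 in thymus KO, 11.01 and 11.04 in spleen HET and 10.99 and 10.97 in spleen KO. Its thymus arrays were all lower, by 0.11 on average (difference -0.11, CI -0.30 to 0.08; limma adjusted p = 0.503), which did not pass.

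**Figure D2:**
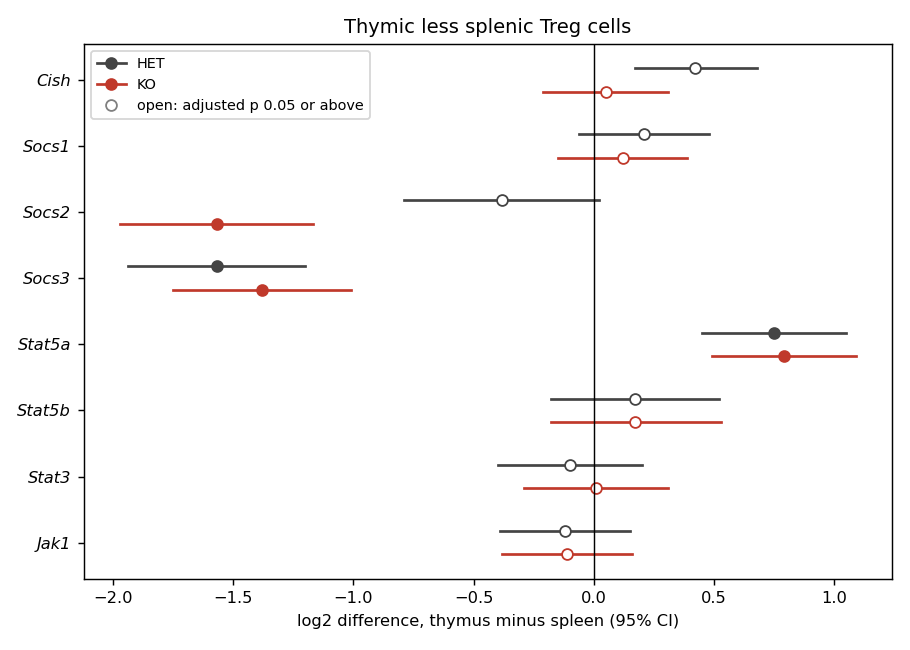
Log2 difference of thymus minus spleen (x axis) for each gene (y axis) in HET and KO cells, with the 95% CI as a bar; filled points passed the test. Socs3 and Stat5a pass in both genotypes, and Socs2 in KO, at -1.57.

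The 3 STAT genes lie side by side on chromosome 11 (GRCm38.p6), Stat5b at chr11:100780731-100859004, Stat5a at chr11:100859351-100885169 and Stat3 at chr11:100886806-100939594. Annotated genes are separated by 346 bases between Stat5b and Stat5a and by 1636 bases between Stat5a and Stat3. Whether the tissue difference was unequal within the SOCS genes and within the STAT genes was tested on the difference of 2 genes on each array, 4 thymus against 4 spleen arrays, over 9 pairs, with the mouse pools not used as a block. An exact two-sided permutation test cannot go below p = 0.0286 here. After Benjamini-Hochberg adjustment over the 9 pairs that smallest value became 0.0367, which depends on how many of these pairs reached it. In thymus Stat5a was higher relative to Stat5b by 0.60 and relative to Stat3 by 0.81, each at that smallest value (exact permutation p = 0.0286, adjusted p = 0.0367), and Stat5b relative to Stat3 by 0.22 at the same value. In these 3 pairs the arrays of the tissues did not overlap, and with 4 arrays a tissue that p-value states no more than this. Stat5a was already called on the same arrays. The share of all gene pairs that separate in this way was not counted. Among the SOCS genes, Cish and Socs1 each separated from Socs2 and Socs3, by 1.14 to 1.71 (exact permutation p = 0.0286, adjusted p = 0.0367). Both Socs2 and Socs3 were already called on the same arrays. Each pair used 1 probe set a gene. The second probe set of Socs2, with a smaller averaged tissue difference of -0.26 (limma adjusted p = 0.153), was not tested in pairs. Socs2 against Socs3 (0.50, exact permutation p = 0.143, adjusted p = 0.161) and Cish against Socs1 (0.08, exact permutation p = 0.371) overlapped.

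Socs2, Socs3 and Cish each had a further probe set, with a lower mean signal. For Socs3 it was at 4.69 and 4.84 in thymus HET, 4.82 and 4.66 in thymus KO, 5.80 and 5.81 in spleen HET and 5.61 and 5.23 in spleen KO. The tissues were again separate, with the thymus arrays just above the background bound. When every probe set was tested alone, this one was lower in thymus by 0.86 (averaged difference -0.86, CI -1.09 to -0.63; limma adjusted p = 0.000723) and passed within HET (-1.04, adjusted p = 0.00617) and KO (-0.68, adjusted p = 0.0459). For Socs2 it was at 5.30 and 5.38 in thymus HET, 5.13 and 5.25 in thymus KO, 5.62 and 5.31 in spleen HET and 5.55 and 5.62 in spleen KO. These groups overlapped between the tissues in HET, and the averaged difference had a CI of -0.48 to -0.05. For Cish it was at 7.57 and 8.05 in thymus HET, 7.69 and 7.94 in thymus KO, 7.35 and 7.36 in spleen HET and 7.51 and 7.30 in spleen KO. All thymus arrays were higher, with a difference of 0.46 in HET, 0.40 in KO and 0.43 averaged (CI 0.17 to 0.69; limma adjusted p = 0.0613).

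**Figure D3:**
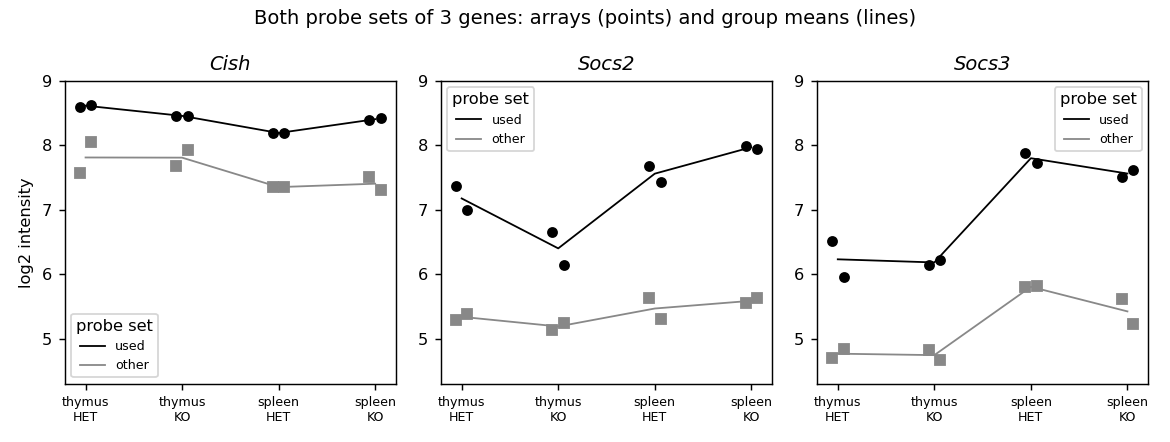
Log2 intensity (y axis) of both probe sets of Cish, Socs2 and Socs3 by group (x axis), with arrays as points and group means joined by lines. Both probe sets of Socs3 are lower in thymus; the second probe set of Socs2 spans 5.13 to 5.62.

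Markers of other cells that could pass the sort were measured beside these tissue differences. Of 7 double-positive thymocyte markers 6 were measured, 2 of them under the bound on all arrays, and their mean lay at 4.87 to 5.16 on thymus and at 4.36 to 4.47 on spleen arrays. Cd8a was at 6.22 and 5.27 in thymus KO and at 3.64 to 4.57 elsewhere, and Dntt at 4.59 to 5.20 in thymus and 3.80 to 3.91 in spleen. Both passed as higher in thymus averaged over genotypes. Of 6 B cell markers 5 were measured, 2 of them under the bound throughout, with a mean of 4.47 to 4.63 on thymus and 4.64 to 4.75 on spleen arrays. Among them Cd22, under the bound on all 4 thymus arrays and at 4.76 to 5.31 in spleen, passed as lower in thymus (-0.47, limma adjusted p = 0.0206). Of 6 myeloid markers 4 were under the bound throughout (mean 3.89 to 3.97 in thymus, 3.88 to 4.13 in spleen), as were 3 of 4 NK cell markers (3.30 to 3.44 and 3.39 to 3.51). Of 4 erythroid markers 2 were measured, with means of 4.11 to 4.31 and 4.09 to 4.22, and of 5 thymic stroma markers 4 were (5.31 to 5.54 and 5.32 to 5.39). The part of these cells in the differences of Socs2, Socs3 and Stat5a was not tested.

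The second question was whether Treg cells without miR-181a/b-1 differ from HET cells in these genes. No member passed in spleen, where 0.00451% of all genes (1 gene) did, in thymus, where 0.00451% (1 gene) did, or averaged over tissues, where 0.0225% (5 genes) did. The 1 gene was Xist in spleen and in thymus, and Xist was among the 5 genes averaged over tissues. At an unadjusted p under 0.05, limma gave 888 genes in spleen, 1225 in thymus and 1226 averaged. In spleen the KO and HET arrays did not overlap for 6 of 8 members, which was so for 36% of all genes, and in thymus for 2 of 8, which was so for 29.4%. In both tissues those that did not overlap included Cish and Socs2.

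**Figure D4:**
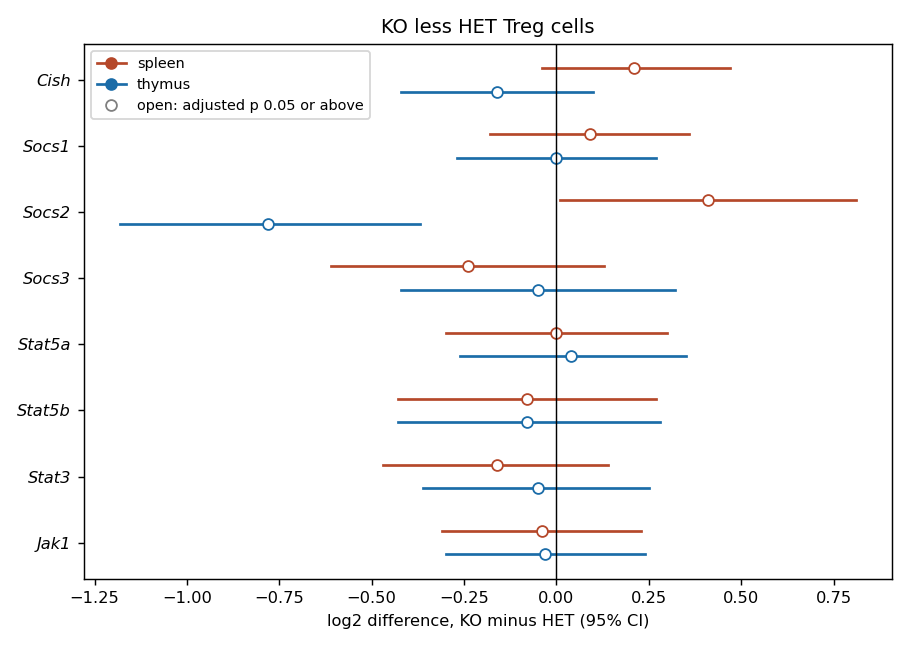
Log2 difference of KO minus HET (x axis) for each gene (y axis) in spleen and in thymus, with the 95% CI as a bar; open points did not pass the test, and all are open. Socs2 is the gene farthest from 0 in both tissues, at -0.78 in thymus and 0.41 in spleen.

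The genotype difference of Socs2, KO minus HET, was -0.78 in thymus (CI -1.18 to -0.37; limma adjusted p = 0.444) and 0.41 in spleen (CI 0.01 to 0.81; limma adjusted p = 1). Both thymus KO arrays were below both thymus HET arrays, and both spleen KO arrays were above both spleen HET arrays. Cish had the same arrangement, with -0.16 in thymus (CI -0.42 to 0.10) and 0.21 in spleen (CI -0.04 to 0.47). An opposite separation of the genotypes in both tissues was found for 4.67% of all genes (1036 genes). The difference between the 2 tissues was tested as an interaction, in which 0% of all genes passed in limma and 813 (3.67%) had an unadjusted p under 0.05. It was 1.19 for Socs2 (CI 0.62 to 1.75; unadjusted p = 0.000683, limma adjusted p = 1) and 0.37 for Cish (CI 0.01 to 0.74; unadjusted p = 0.0452, limma adjusted p = 1). In their second probe sets it was 0.27 for Socs2 (CI -0.16 to 0.70) and 0.06 for Cish (CI -0.47 to 0.58). Beside these values stand the sex-linked genes, with Xist higher in KO and the Y-linked Eif2s3y at 7.43 to 8.07 in HET and 7.07 to 7.78 in KO. The double-positive thymocyte marker Cd8a was at 6.22 and 5.27 in thymus KO and at 4.39 and 4.57 in thymus HET, where it was under the bound, a measured difference of 1.27 that did not pass. Of the 6 measured markers of that list, 2 had a positive and 4 a negative difference, with a median of -0.08. Dntt went the other way, at 4.62 and 4.59 in thymus KO and at 5.20 and 4.84 in thymus HET. The part of sex and of thymocytes in the Socs2 and Cish values was not tested.

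For the other members, the interval of the genotype difference limits its size. Socs3 differed by -0.24 in spleen (CI -0.61 to 0.13) and -0.05 in thymus (CI -0.42 to 0.32), Stat3 by -0.16 (CI -0.47 to 0.14) and -0.05 (CI -0.36 to 0.25), and Stat5b by -0.08 in both (CI -0.43 to 0.27 and -0.43 to 0.28). Stat5a differed by 0.00 in spleen (CI -0.30 to 0.30) and 0.04 in thymus (CI -0.26 to 0.35), Socs1 by 0.09 (CI -0.18 to 0.36) and 0.00 (CI -0.27 to 0.27), and Jak1 by -0.04 (CI -0.31 to 0.23) and -0.03 (CI -0.30 to 0.24). For each of these 6 genes the interval excluded a 2-fold change in either direction in both tissues.

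The rest of the pathway was described through lists of genes by role, averaged over genotypes. The lists were also chosen with earlier results of these data known. Their counts stand beside the 5.43% of all genes that passed in either direction. Of the receptor chains, 23 of 24 were measured, 5 were lower in thymus, as were 3.17% of all genes, and none was higher, with a median of -0.16 against 0.018 for all genes. Among these chains Csf2rb, Il23r, Lifr and Osmr lay under the bound on all 8 arrays and Il12rb2 on 7. Il10ra, which binds IL-10 and signals through STAT3, was at 6.88, 6.45, 6.40 and 6.14 on thymus and at 7.69, 7.74, 7.79 and 7.70 on spleen arrays, a difference of -1.26 (CI -1.51 to -1.02; limma adjusted p = 7.93e-05). Il6ra, which binds IL-6, was at 9.07, 8.57, 8.62 and 8.50 on thymus and at 9.84, 9.76, 9.89 and 9.87 on spleen arrays, a difference of -1.15 (CI -1.40 to -0.90; limma adjusted p = 0.000144). The tissues did not overlap for either gene, and both passed within HET and within KO as well. Within HET neither Il10ra nor Il6ra passed without thymus HET replicate 2 or without either spleen HET array. The others were Il4ra (-0.66), Il12rb1 (-0.45) and Il27ra (-0.41), chains for IL-4, for IL-12 and IL-23, and for IL-27. The IL-2 receptor chains Il2ra (-0.08) and Il2rb (-0.17) and the IL-7 receptor chain Il7r (-0.23) did not pass. Averaged over genotypes, 3 receptor chains were called in place of 5 without either spleen HET array or without spleen KO replicate 1.

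**Figure D5:**
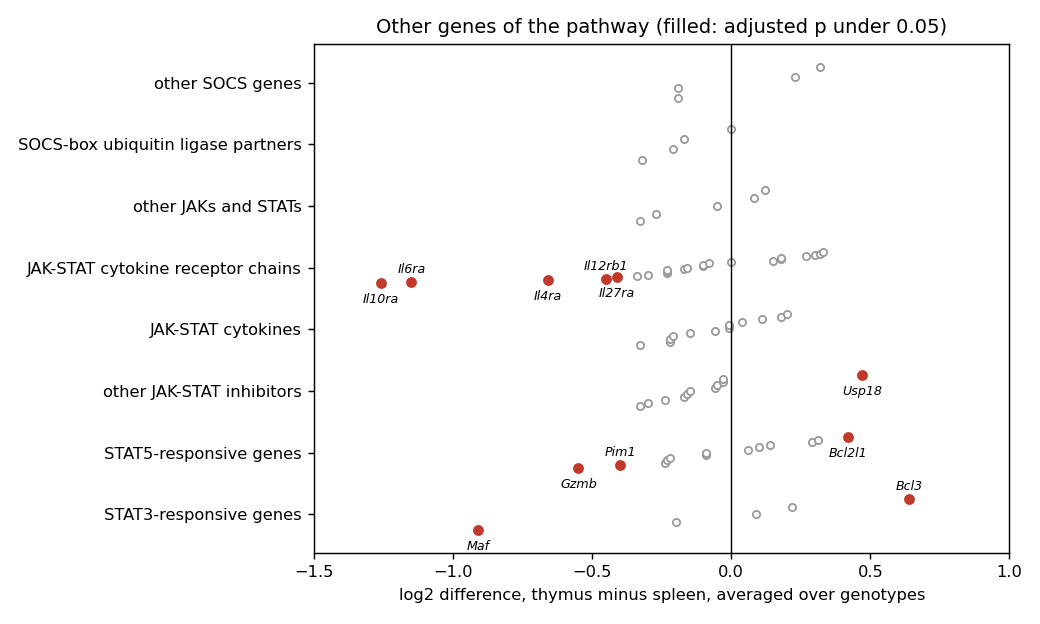
Log2 difference of thymus minus spleen averaged over genotypes (x axis) for the measured genes of 8 lists (y axis, 1 point a gene); filled and named points passed the test. Il10ra and Il6ra lie farthest to the left, at -1.26 and -1.15.

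Other parts of the feedback machinery gave few calls. None of the 4 other SOCS genes (Socs4 to Socs7, median 0.02), of the 4 partners in the SOCS-box ubiquitin ligase (Elob, Eloc, Cul5 and Rnf7, median -0.19) or of 5 measured other JAKs and STATs (median -0.05) passed. Nearest to the threshold were Tyk2, a kinase of the interferon and IL-12 receptors (-0.33, limma adjusted p = 0.0512), and Socs7 (0.32, limma adjusted p = 0.0609). Of 12 JAK-STAT cytokine genes none passed. Among them Il2, Il4, Il6, Il7, Il9, Il10, Il15, Il21 and Tslp lay under the bound on all 8 arrays and Ifng on 6. For these genes the missing calls say little about the tissues. Of 11 other inhibitors, phosphatases, PIAS proteins and adaptors, 10 had a negative difference (median -0.15) that did not pass, while Usp18, which restrains type I interferon receptor signalling, was higher by 0.47 (limma adjusted p = 0.0216), a call lost without either spleen HET array or without spleen KO replicate 1. A count of 1 in 11 is near the share of all genes.

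Of 13 measured genes known to respond to STAT5, 1 was higher and 2 were lower in thymus (median -0.09), and the other 10 did not pass. The higher one was Bcl2l1, which encodes the survival protein Bcl-xL, at 6.68 to 6.98 in thymus and 6.34 to 6.51 in spleen (0.42, limma adjusted p = 0.0319). Pim1, a survival kinase, was lower, at 8.80 to 9.45 against 9.44 to 9.56 (-0.40, limma adjusted p = 0.0451), with thymus HET replicate 1 reaching the spleen range. Gzmb, a cytotoxic protease, passed as lower (limma adjusted p = 0.0408) with all thymus arrays under the bound, so it has no fold. Replicate 2 of spleen HET (4.59) and of spleen KO (4.46) also lay under the bound. All 3 calls were lost without spleen HET replicate 1, without thymus KO replicate 2 or without spleen KO replicate 1, and 1 gene of the list was called without thymus HET replicate 2, spleen HET replicate 2 or without spleen KO replicate 2. Of 5 measured STAT3-responsive genes, Maf, a transcription factor, was lower in thymus, at 7.18, 7.17, 6.68 and 6.64 against 7.77, 7.76, 7.87 and 7.90 (-0.91, limma adjusted p = 9.38e-05). Bcl3, an atypical I-kappa-B protein, was higher, at 7.75 to 7.91 against 6.83 to 7.44 (0.64, limma adjusted p = 0.00747). Between the genotypes, no gene of any of these lists passed in either tissue.

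Likeness was ranked among genes with a mean above the median of all genes, leaving out predicted genes and miRNAs. Only those whose SD over these same 8 arrays was at or above the median SD were kept, which favours a high r. The genes whose pattern over the 8 arrays was most like that of each inhibitor were ranked by Pearson's r among 5075 or 5076 such genes, as a description, since all points share the 4 groups. For Socs3 they were Adcy7, an adenylyl cyclase (r = 0.994), Gimap6, a GTPase of lymphocytes (0.989), and Slamf7, a receptor of the SLAM family (0.989). For Socs2 they were Mgat4a (0.981), Phf5a (0.978) and B3gnt5 (0.975), the first and last of which encode glycosyltransferases. For Cish they were Tg (0.941), Il17rb, an IL-25 receptor chain (0.926), and Zfp948 (0.919), and for Socs1 Ctrc (0.946), Lrrc42 (0.942) and Hpca (0.941). Among the members, Stat5a (r = -0.923), Cish (-0.816) and Socs1 (-0.786) ran opposite to Socs3, and Jak1 (0.815) and Socs2 (0.801) followed it. Weaker values were those of Stat3 (0.391) and Stat5b (-0.344).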

How the data were processed

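Treg-cell RNA was measured on 8 Affymetrix arrays. The authors deposited log2 intensities for 41345 probe sets. The submitters' processing notes name oligo, whose version and summarisation function are not given in the sources used here. The methods name a different array design from that of the deposited identifiers, which were followed. No further normalization was applied. Per the platform annotation, 23521 probe sets carried 1 gene symbol, 1820 several and 16004 were not listed. Entrez identifiers matched 23328 of the former to RefSeq (GRCm38.p6), which changed 0 symbols. For 1082 genes with over 1 probe set, the one with the highest mean was kept, leaving 22180 genes. Reads do not apply, so the number of arrays limits the precision.

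Means of the 4 groups were fitted to all genes in 1 model with limma 3.58.1 (R 4.3.3) and eBayes. P-values are two-sided and Benjamini-Hochberg adjusted over all genes, with a threshold of 0.05; the code was tested on simulated data. The permutation tests used scipy 1.17.1. Labels and design text tie the thymus and spleen arrays of a genotype and number to 1 mouse pool. Deviations of arrays of 1 pool correlated at 0.123 in HET and 0.022 in KO, and those of arrays that share only a number at 0.205 in thymus and -0.046 in spleen. Members and gene lists were chosen with earlier results of these data known. All members were described, and of each list the genes that passed in the averaged tissue comparison; Il2ra, Il2rb, Il7r, Tyk2, Socs7 and the sex-linked and marker genes named otherwise were chosen after their values were seen. Alternatives were quantile normalization, genes above the median level only, robust eBayes with a trend, averaged probe sets, array weights, only the compared arrays, replicate blocks and leaving out each array. Testing the other probe set of Socs2, Socs3 and Cish was added after seeing the data.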

Additional observations from a re-analysis of the deposited data

Results flagged for a closer look

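Socs2 and Cish were singled out because every KO array lay on one side of the HET arrays in spleen and on the other side in thymus. Such an opposite separation was found for 4.67% of all genes (1036 genes). The genotype difference in spleen less that in thymus was 1.19 for Socs2 and 0.37 for Cish. The interaction did not pass for either in limma (adjusted p = 1), and the second probe sets gave 0.27 and 0.06.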

How the results depend on the processing

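The number of members called was 0 in all 4 comparisons that involve genotype under every alternative run. Called differences of Socs3 kept their direction and call throughout, at an adjusted p of at most 0.0459. Averaged over genotypes 3 to 4 members were called, and 2 to 3 within KO. Within HET, 1 member was called in place of 2 with only the compared arrays, where fewer arrays were fitted, and 1 to 2 without single arrays. Cish passed averaged over genotypes under quantile normalization (0.33, adjusted p = 0.0465); the cause was not tested. Stat5a within HET did not pass with only the compared arrays (adjusted p = 0.065). Stat3, thymus minus spleen averaged, turned to 0.03 under quantile normalization; the cause was not tested.

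Small differences that did not pass changed sign without single arrays. For KO minus HET in thymus they ranged from -0.04 to 0.04 for Socs1, -0.33 to 0.23 for Socs3, -0.10 to 0.18 for Stat5a, -0.33 to 0.18 for Stat5b, -0.22 to 0.11 for Stat3 and -0.10 to 0.04 for Jak1, and in spleen from -0.06 to 0.06 for Stat5a. For thymus minus spleen in HET they ranged from -0.08 to 0.42 for Stat5b and -0.26 to 0.06 for Stat3, and for Stat3 from -0.06 to 0.08 in KO and -0.13 to 0.04 averaged.

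With a replicate block, by number or by mouse pool, 3 members were called averaged over genotypes and 2 in HET, and no call of a member changed. Over all genes, the alternatives called 1 to 6 in place of 1 between genotypes in spleen, 1 to 4 in place of 1 in thymus, 1 to 13 in place of 5 averaged, 64 to 401 in place of 266 between tissues in HET, 97 to 612 in place of 381 in KO and 518 to 1673 in place of 1204 averaged. Between tissues averaged, the lists gave 0 to 1 other SOCS genes, 0 to 1 other JAKs and STATs, 3 to 7 receptor chains, 0 to 3 other inhibitors and 0 to 5 STAT5-responsive genes. With 2 arrays a group, a lone array left in a group is assumed to vary like the others.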
